A study of Mus musculus with 16 samples.

Results

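The genes described here switch off or tune mitogen-activated protein (MAP) kinases in T cells: the dual specificity phosphatase genes Dusp1, Dusp2, Dusp4, Dusp5, Dusp6 and Dusp10, the growth arrest and DNA damage genes Gadd45a, Gadd45b and Gadd45g, and the Ras pathway inhibitor Spred1. The 10 genes were listed by name, and their rows were taken from an intensity table of 18138 genes. An entry was found for 9 of them, 8 were above background on enough arrays to be tested, and Dusp5 was not analysed here. The samples were D10 cells, a mouse Th2 line grown out of 1 T cell clone and kept in interleukin-2. Of the groups, 4 had been left without inhibitor (control cells, described as untreated in the labels and once as given solvent in the study), and the others had been pre-incubated for 1 h with 10 µM Akti1/2, an allosteric inhibitor of the kinases Akt1 and Akt2. Cells of either kind were stimulated through CD3 and CD28 with biotinylated antibodies and streptavidin for 0, 2, 6 or 12 h, which gave 8 groups of 2 arrays. The question was how the response to stimulation depends on Akt, in 1 cell line, at 1 dose and with 1 inhibitor.

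T cell receptor and CD28 signals drive the ERK, JNK and p38 MAP kinases, each at the end of a chain of kinases that phosphorylate one another. Dual specificity phosphatases remove the activating phosphates from the last kinase of the chain, and many of their genes are themselves induced by MAP kinase signalling, so that they work as feedback. GADD45 proteins act higher up: they bind the kinase MAP3K4 and release its activity towards p38 and JNK, and GADD45B also binds and blocks the JNK kinase MAP2K7. SPRED1 holds back the activation of RAF by Ras, at the top of the ERK chain. In T cells, Dusp1, Dusp2 and Gadd45b are known as early genes of activation, and Gadd45b and Gadd45g are known for their part in p38 signalling and cytokine production.

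The 16 arrays lay on 2 chips with 1 array of each group per chip, and 6288 to 6907 genes per array were above background, that is, brighter than all but under 1% of the negative control probes. Replicate arrays correlated at 0.986 to 0.994 over the genes tested. Levels are background-corrected, quantile-normalized log2 intensities, on which a difference of 1 is a 2-fold change. Since each gene was read by its own probe, levels are compared between arrays and not between genes. Differences were tested with limma over 7395 genes (those above background on 2 or more arrays), and a gene was called where its p, adjusted after Benjamini and Hochberg over all of them, was under 0.05. Of the T helper markers listed, 8 of 9 were above background (all but Thy1), as were 6 of 7 Th2 markers (all but Ccr4), and none of 15 markers of other blood cells was above background on more than 1 array. Summed over each list, the other-cell markers stayed at 8.51 to 8.64 on the log2 scale. The T helper markers were at 14.29 to 14.66. The Th2 markers moved with the groups, from 12.67 to 12.73 at 0 h to 14.35 to 14.69 in control cells and 13.64 to 13.75 in treated cells at 6 and 12 h, and their part in the results below was not tested. The levels are those of a whole culture, so fewer cells with a transcript and less transcript per cell cannot be told apart.

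Dusp1, Dusp2, Gadd45b and Gadd45g were the members whose level differed between Akti1/2-treated and control cells at both 2 and 6 h, and their promoters are shown for that reason. The sequences are the 250 bases before the annotated start in RefSeq (GRCm38.p6, in the direction of the gene). The promoters lie at chr17:26508473-26508722 on the minus strand (Dusp1), chr2:127335909-127336158 on the plus strand (Dusp2), chr10:80929841-80930090 on the plus strand (Gadd45b) and chr13:51846425-51846674 on the plus strand (Gadd45g). Capitals mark an E-box (CACGTG) in each, a cAMP response element (TGACGTCA) in Dusp1, which lies upstream of the E-box there, and an ATF4-type element (TGATGNAA, on the opposite strand, so that it reads TTGCATCA) in Gadd45g, which lies downstream of the E-box.
Dusp1: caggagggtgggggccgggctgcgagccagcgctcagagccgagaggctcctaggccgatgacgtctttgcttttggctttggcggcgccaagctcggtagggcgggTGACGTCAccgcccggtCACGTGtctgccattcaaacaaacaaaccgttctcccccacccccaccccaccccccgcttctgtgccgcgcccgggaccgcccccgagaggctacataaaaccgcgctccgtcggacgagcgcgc
Dusp2: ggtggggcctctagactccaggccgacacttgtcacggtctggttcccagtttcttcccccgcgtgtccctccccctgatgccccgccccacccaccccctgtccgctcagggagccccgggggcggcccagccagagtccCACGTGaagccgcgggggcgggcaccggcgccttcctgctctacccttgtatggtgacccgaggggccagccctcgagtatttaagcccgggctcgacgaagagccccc
Gadd45b: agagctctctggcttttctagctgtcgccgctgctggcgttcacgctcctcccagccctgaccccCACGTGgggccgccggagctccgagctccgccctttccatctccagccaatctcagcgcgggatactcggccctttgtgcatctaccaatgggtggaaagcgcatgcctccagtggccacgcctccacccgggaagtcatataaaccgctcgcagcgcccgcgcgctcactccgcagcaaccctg
Gadd45g: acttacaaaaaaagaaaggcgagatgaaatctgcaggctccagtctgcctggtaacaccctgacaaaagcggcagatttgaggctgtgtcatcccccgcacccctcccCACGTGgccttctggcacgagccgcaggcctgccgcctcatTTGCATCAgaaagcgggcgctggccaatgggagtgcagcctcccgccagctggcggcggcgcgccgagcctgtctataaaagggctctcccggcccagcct

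The E-box starts 126 bases before the start of Dusp1, 109 before that of Dusp2, 185 before that of Gadd45b and 142 before that of Gadd45g. It was found in 4 of the 9 member promoters searched (Dusp1, Dusp2, Dusp5, Dusp6, Dusp10, Gadd45a, Gadd45b, Gadd45g and Spred1), and in 6.02% of the 32851 promoters of the table. The cAMP response element occurred in 1.55% of all promoters, and the ATF4-type element in 3.45%. A serum response element was found only in Dusp5 among the members (1.47% of all promoters). The other motifs searched, on both strands, were AP-1 (TGANTCA, 6.75% of all promoters), FOXO (GTAAACA, 3.17%) and kappaB (7.25%), and no member promoter held one in this window. These matches are a description of letters, made after the levels were known, and their part in the levels was not tested. At 2 and 6 h Dusp1 was higher with Akti1/2, and Dusp2, Gadd45b and Gadd45g were lower.

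**Figure D1:**
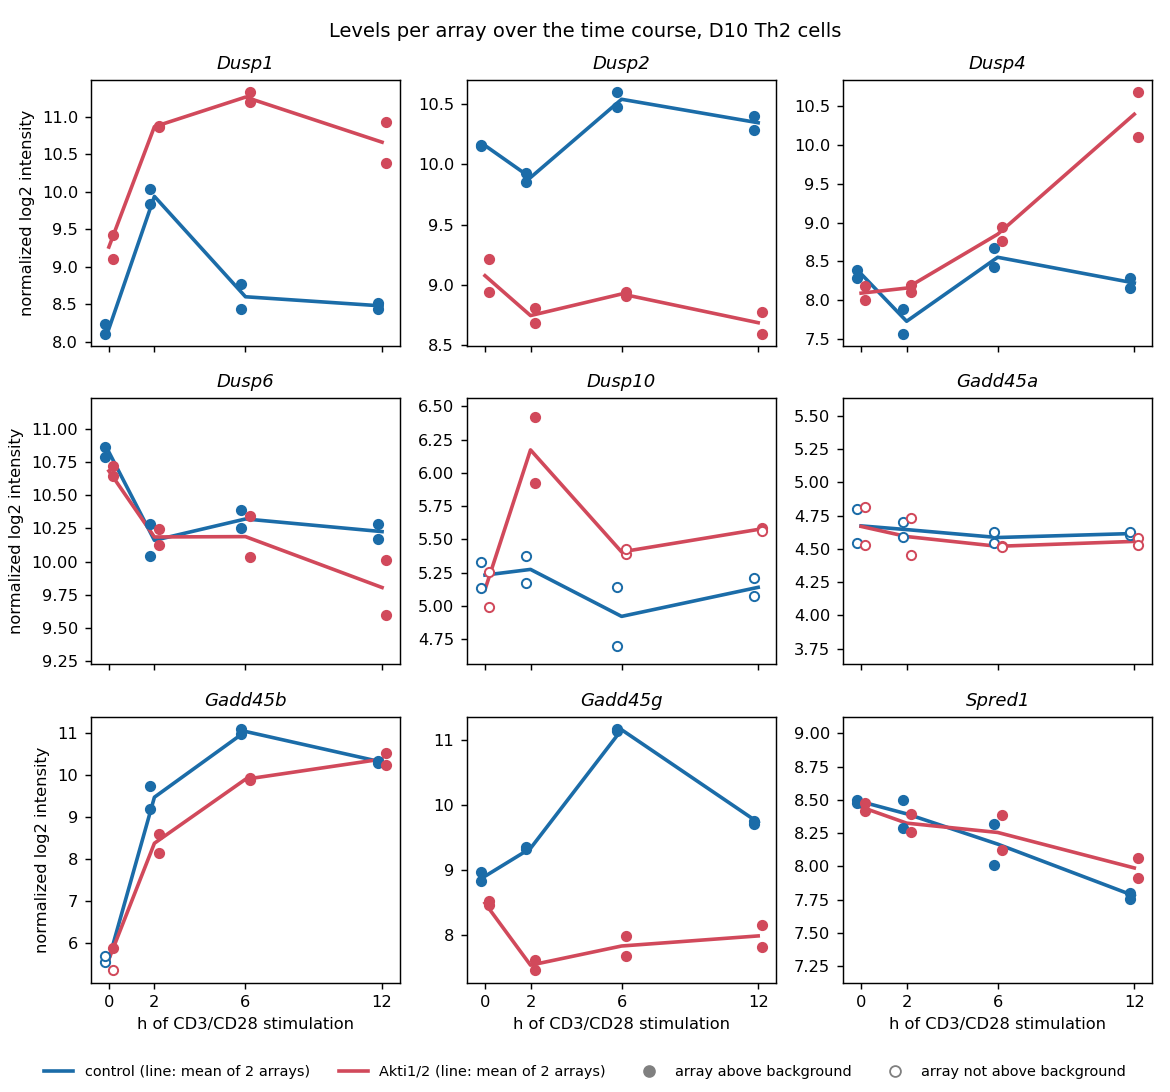
Normalized log2 intensity (vertical axis) of the 9 genes with an entry at 0, 2, 6 and 12 h of CD3/CD28 stimulation (horizontal axis), in control cells (blue) and Akti1/2-treated cells (red). Points are arrays, lines join the means of 2 arrays, and open points are arrays on which the gene was not above background. Gadd45g reached 11.14 and 11.18 at 6 h in control cells and stayed at or under 8.53 on all Akti1/2-treated arrays.

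Gadd45g, which binds MAP3K4 and activates p38 and JNK, had the largest Akti1/2 difference (treated minus control level) of the 8 genes tested at 2 h and at 6 h, but not at 0 or 12 h. In control cells its level was 8.84 and 8.98 at 0 h, 9.32 and 9.35 at 2 h, 11.14 and 11.18 at 6 h, then 9.71 and 9.76 at 12 h. In Akti1/2-treated cells it was 8.53 and 8.47 at 0 h, 7.63 and 7.46 at 2 h, 8.00 and 7.68 at 6 h, then 8.16 and 7.82 at 12 h. The highest Akti1/2-treated array was thus below the lowest control array, and the 4 control groups did not overlap one another, while the treated groups at 6 and 12 h did.

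Stimulation raised Gadd45g in control cells by 2.25 ± 0.14 (log2 difference ± SE, n = 2 and 2 arrays, 4.76-fold, limma adjusted p = 1.92e-07) at 6 h and by 0.83 ± 0.14 at 12 h (adjusted p = 0.000783). At 2 h the change was 0.43 ± 0.14 (adjusted p = 0.0652), which became a call in 6 of 23 alternative settings, 4 of them the fits without 1 of the arrays of Akti1/2-treated cells at 6 or 12 h (adjusted p 0.0186 to 0.0499 over the 6). With Akti1/2 the same stimulation lowered it, by 0.95 ± 0.14 on the log2 scale at 2 h (1.94-fold, limma adjusted p = 0.000296). It was still below its 0 h level at 6 h (−0.66 ± 0.14) and at 12 h (−0.50 ± 0.14), both called. The call at 12 h was lost without replicate 1 of the treated cells at 0 h or replicate 2 at 12 h (limma adjusted p 0.0544 and 0.106).

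Between treated and control cells, the difference in Gadd45g was −0.41 ± 0.14 at 0 h (limma adjusted p = 0.807), −1.79 ± 0.14 at 2 h, −3.32 ± 0.14 at 6 h and −1.74 ± 0.14 at 12 h. The difference at 6 h is a 10.0-fold lower level (limma adjusted p = 9.26e-09, 95% interval −3.62 to −3.03), and it was −3.15 within chip 1 and −3.50 within chip 2. The difference in response (treated minus control, for the change since 0 h) was −1.38 at 2 h, −2.91 at 6 h and −1.33 at 12 h (SE 0.19 each, limma adjusted p 0.00237, 3.21e-06 and 0.00029). The Akti1/2 difference grew from 2 to 6 h by −1.53 ± 0.19 (limma adjusted p = 0.00118) and shrank again from 6 to 12 h by 1.58 ± 0.19 (limma adjusted p = 0.00133).

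Gadd45b, whose product activates MAP3K4 and blocks MAP2K7, went from background to bright with and without the inhibitor. Its level in control cells was 5.54 and 5.67 at 0 h, with neither array above background, then 9.74 and 9.19 at 2 h, 10.96 and 11.10 at 6 h, then 10.32 and 10.28 at 12 h. In treated cells it was 5.87 and 5.33 at 0 h, with 1 of 2 arrays above background, then 8.14 and 8.59 at 2 h, 9.86 and 9.92 at 6 h, then 10.52 and 10.22 at 12 h. Treated arrays lay below control arrays at 2 and 6 h, and the groups overlapped at 12 h.

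Against 0 h, Gadd45b in control cells was at least 14.2-fold higher at 2 h, at least 42.0-fold at 6 h and at least 25.3-fold at 12 h, where the bounds set the bright mean against the higher of the dim level and the lowest level above background (limma adjusted p 1.55e-07, 3.59e-09 and 1.87e-08). In treated cells, where 1 of 2 arrays at 0 h measured it, the fitted changes were 2.76, 4.29 and 4.77 (SE 0.21 each, limma adjusted p 3.49e-06, 4.46e-08 and 9.29e-09). These sizes hold on the background-corrected scale: without background correction, control cells changed by 2.34, 3.76 and 3.08 and treated cells by 1.45, 2.71 and 3.14 at the 3 times, all called. Treated cells had less Gadd45b than control cells at 2 h by 2.14-fold (−1.10 ± 0.21, limma adjusted p = 0.00293), and by 2.20-fold at 6 h (−1.14 ± 0.21, adjusted p = 0.00129). At 12 h the difference was 0.07 ± 0.21 (95% interval −0.39 to 0.53, limma adjusted p = 0.807).

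The gap between the groups was closed at 12 h: control cells were lower than at 6 h (−0.73 ± 0.21, limma adjusted p = 0.0391), while the treated cells changed by 0.48 ± 0.21 over the same hours (adjusted p = 0.143, but 0.037 and a call with quantile normalization without background correction). The Akti1/2 difference itself moved from 6 to 12 h by 1.21 ± 0.30 (limma adjusted p = 0.0364). These late calls were near the threshold. The fall in control cells was not called without either array of the control cells at 0, 6 or 12 h or without the filter on dim genes (limma adjusted p 0.0526 to 0.169), and the change of the Akti1/2 difference was not called in 11 settings, which were the same 7 and the fits without either treated array at 6 or 12 h (adjusted p 0.0522 to 0.123). The change from 0 h differed between treated and control cells by −1.09, −1.14 and 0.08 at 2, 6 and 12 h (SE 0.30 each, limma adjusted p 0.0434, 0.0199 and 0.874). These 3 fitted values rest on a control level at 0 h that is at background, and the value at 2 h was −1.93 within chip 1 and −0.26 within chip 2. The call at 2 h was lost in 13 settings (limma adjusted p 0.0501 to 0.148), among them without either control array at 0, 6 or 12 h, replicate 1 of the control cells at 2 h, replicate 1 of the treated cells at 0 or 2 h, and replicate 2 of the treated cells at 12 h, and that at 6 h without replicate 1 of either group at 0 h or replicate 2 of the control cells at 6 h (0.0642 to 0.0796).

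Gadd45a, which is known as a p53 target and as an inhibitor of a T cell-specific way of activating p38, was not above background on any of the 16 arrays and was not tested. Its group means spanned 0.153 on the log2 scale.

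Dusp1, a nuclear phosphatase of p38, JNK and ERK, was higher in treated cells, where Gadd45g was lower. In control cells its level was 8.24 and 8.11 at 0 h, 10.04 and 9.84 at 2 h, 8.77 and 8.43 at 6 h, then 8.44 and 8.52 at 12 h. In treated cells it was 9.42 and 9.11 at 0 h, 10.88 and 10.87 at 2 h, 11.19 and 11.34 at 6 h, then 10.94 and 10.39 at 12 h. The control cells showed a single early peak, and from 2 h on all treated arrays were above all control arrays. The control groups at 6 and 12 h overlapped, as did the treated groups at 2 and 12 h.

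In control cells Dusp1 rose by 1.77 ± 0.18 at 2 h (a 3.40-fold rise, limma adjusted p = 5.02e-05) and fell again by 1.34 on the log2 scale between 2 and 6 h (adjusted p = 0.000441). Its changes from 0 h were then 0.43 ± 0.18 at 6 h and 0.31 ± 0.18 at 12 h (limma adjusted p 0.097 and 0.228). The former became a call without either treated array at 12 h (limma adjusted p 0.0486 and 0.0493). In treated cells Dusp1 rose by 1.61 ± 0.18 at 2 h (adjusted p = 5.01e-05 by limma) and was still above its 0 h level by 2.00 ± 0.18 at 6 h and 1.40 ± 0.18 at 12 h (limma adjusted p 5.22e-06 and 5.06e-05). It fell from 6 to 12 h (−0.60 ± 0.18, limma adjusted p = 0.0357), a call lost in 5 settings (0.0529 to 0.276), which were the fits with no filter on dim genes, of only the groups compared, and without replicate 1 or 2 of the treated cells at 6 h or replicate 2 at 12 h.

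Treated cells had more Dusp1 than control cells at all times of stimulation: 0.93 (1.90-fold) at 2 h, 2.66 (6.34-fold) at 6 h and 2.18 (4.55-fold) at 12 h, with an SE of 0.18 each (limma adjusted p 0.00269, 8.66e-07 and 1.39e-06). Before stimulation the difference was 1.09 ± 0.18 (2.13-fold, 95% interval 0.71 to 1.48), higher in treated cells on both chips (1.18 and 1.00), with a limma adjusted p of 0.0649. It became a call in 6 of 23 settings (limma adjusted p 0.0157 to 0.032), which were quantile normalization without background correction, only genes detected on all arrays, 2 fits with a block, and the fits without either treated array at 12 h. The change from 0 h differed between treated and control cells by −0.16 ± 0.25, 1.57 ± 0.25 and 1.09 ± 0.25 at 2, 6 and 12 h (limma adjusted p 0.731, 0.00126 and 0.00563), with a 95% interval of −0.71 to 0.38 for the first. The Akti1/2 difference grew between 2 and 6 h (by 1.73 ± 0.25, limma adjusted p = 0.00236).

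Dusp2, a nuclear phosphatase found mainly in blood cells, was lower with Akti1/2 at every time, before stimulation included. Its control levels were 10.16 and 10.15 at 0 h, 9.93 and 9.85 at 2 h, 10.48 and 10.60 at 6 h, then 10.40 and 10.29 at 12 h. The treated levels were 8.94 and 9.21 at 0 h, 8.68 and 8.81 at 2 h, 8.94 and 8.91 at 6 h, then 8.59 and 8.78 at 12 h. No treated array reached 9.85, the lowest control value.

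The difference in Dusp2 between treated and control cells was −1.08, −1.15, −1.62 and −1.66 at 0, 2, 6 and 12 h (SE 0.12 each), or 2.12-fold lower before stimulation and 3.16-fold lower at the end. The limma adjusted p-values were 0.00191, 5.87e-05, 1.62e-06 and 5.28e-07. At 0 h it was lost in a fit of only the 2 groups compared (limma adjusted p = 0.313), in which none of the other groups lends its estimate of the spread. Over time Dusp2 moved little: control cells rose by 0.38 ± 0.12 at 6 h, and treated cells fell by 0.33 on the log2 scale at 2 h and by 0.39 at 12 h (limma adjusted p 0.0293, 0.0422 and 0.0173). The rise was not called without any 1 of the control arrays at 0 or 6 h or in a fit of only the groups compared (limma adjusted p 0.0509 to 0.16). The fall at 12 h was not called in that fit or without replicate 2 of the treated cells at 0 h or replicate 1 at 12 h (0.0695 to 0.175), and the fall at 2 h in 11 settings, among them without either control array at 0, 2 or 12 h, either treated array at 2 h or replicate 2 of the treated cells at 0 h (0.0516 to 0.315).

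The change from 0 h differed for Dusp2 by −0.07, −0.54 and −0.58 at 2, 6 and 12 h (SE 0.17 each, limma adjusted p 0.839, 0.0406 and 0.0185). The call at 6 h was lost in 14 settings (limma adjusted p 0.0522 to 0.156), among them without any 1 of the 8 control arrays, either treated array at 6 h or replicate 2 of the treated cells at 0 h. The call at 12 h was lost without replicate 2 of either group at 0 h or replicate 1 of either group at 12 h (limma adjusted p 0.0515 to 0.0834).

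Dusp4, a nuclear phosphatase of ERK and JNK, stood apart late and in treated cells. Its control levels were 8.39 and 8.29 at 0 h, 7.89 and 7.57 at 2 h, 8.43 and 8.68 at 6 h, then 8.29 and 8.15 at 12 h. Its treated levels were 8.00 and 8.18 at 0 h, 8.20 and 8.11 at 2 h, 8.94 and 8.76 at 6 h, then 10.68 and 10.10 at 12 h. The 12 h treated arrays were above every other array, and the groups at 0 h and 12 h of the control cells overlapped, as did those at 0 and 2 h of the treated cells.

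In treated cells Dusp4 was raised by 0.76 ± 0.18 at 6 h and by 2.30 ± 0.18, or 4.91-fold, at 12 h (limma adjusted p 0.00614 and 9.21e-07), with a rise of 1.54 ± 0.18 between these times (adjusted p = 0.000151). The call at 6 h was lost without replicate 1 of the treated cells at 0 h (limma adjusted p = 0.0518). In control cells the one called change from 0 h was at 2 h (−0.61 ± 0.18, limma adjusted p = 0.0489), and it was lost in 16 settings, among them the fits without any 1 of the control arrays or without any 1 of the treated arrays at 0 or 2 h (0.0508 to 0.289). Between treated and control cells the difference was −0.25 ± 0.18 at 0 h, 0.43 ± 0.18 at 2 h, 0.30 ± 0.18 at 6 h and 2.17 ± 0.18 at 12 h, the last 4.49-fold (limma adjusted p 0.992, 0.0921, 0.216 and 1.51e-06). The value at 2 h became a call without either treated array at 12 h (limma adjusted p = 0.0437). The change from 0 h differed by 2.41 ± 0.25 at 12 h (limma adjusted p = 3.54e-05), and the Akti1/2 difference changed by 1.87 ± 0.25 between 6 and 12 h (adjusted p = 0.00225).

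Dusp6, the cytoplasmic phosphatase of ERK, fell after stimulation with and without the inhibitor. Control levels were 10.79 and 10.86 at 0 h, 10.04 and 10.28 at 2 h, 10.39 and 10.25 at 6 h, then 10.17 and 10.28 at 12 h. Treated levels were 10.64 and 10.72 at 0 h, 10.25 and 10.12 at 2 h, 10.04 and 10.34 at 6 h, then 9.60 and 10.01 at 12 h. All arrays after 0 h were below all arrays at 0 h.

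The fall of Dusp6 from 0 h in control cells was −0.66 at 2 h, −0.50 at 6 h and −0.60 at 12 h (SE 0.15 each, limma adjusted p 0.0159, 0.026 and 0.0103). In treated cells it was −0.50, −0.49 and −0.88 at the same times (limma adjusted p 0.0211, 0.0236 and 0.000522). The fall at 12 h in treated cells was called in every setting run, while each of the others was lost in 2 to 4 settings. These were the fits without 1 array of the groups in question, with limma adjusted p between 0.0604 and 0.151, and, for the treated cells at 6 h, the fit of only the groups compared. Without replicate 1 of the control cells at 0 h the falls at 2 and 6 h were lost, and without replicate 2 those at 2, 6 and 12 h. Without replicate 1 of the control cells at 2 h or at 12 h, or either at 6 h, that time's fall was lost. In treated cells the falls at 2 and 6 h were lost without either array at 0 h, the former also without replicate 2 at 2 h and the latter without replicate 1 at 6 h. Treated and control cells differed by −0.14, 0.03 and −0.13 at 0, 2 and 6 h, with 95% intervals that together reach from −0.47 to 0.35, and by −0.42 ± 0.15 at 12 h (limma adjusted p = 0.035). The last call was lost in 5 settings (limma adjusted p 0.0656 to 0.321): no filter on dim genes, only the groups compared, without either control array at 12 h, and without replicate 1 of the treated cells at 12 h.

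Dusp10, a phosphatase of JNK and p38, was above background on 3 arrays, all from treated cells, which are also the arrays through which it entered the test. It read 5.92 and 6.42 in treated cells at 2 h and 5.58 and 5.57 at 12 h, the first of these above background. On all other arrays it lay between 4.70 and 5.42 and was not above background. On the background-corrected scale, Dusp10 in treated cells at 2 h was at least 1.44-fold higher than at 0 h (limma adjusted p = 0.000934). It was at least 1.41-fold higher than in control cells at 2 h (limma adjusted p = 0.00346) and at least 1.5-fold higher than at 6 h (adjusted p = 0.00769). The last call was lost without replicate 2 of the treated cells at 2 h or with only the groups compared. All 3 p-values rest on arrays through which the gene entered the test, so they are not independent support. The fitted difference in the change from 0 h was 1.01 ± 0.25 (limma adjusted p = 0.0304), with 3 of its 4 groups at background, so that it rests on the group through which the gene entered the test and its size is not a measured one. Without background correction it was 0.33. The differences behind the first 2 bounds were then 0.34 and 0.30, so these bounds do not hold on that scale. Over the settings run, the difference behind the third bound was as small as −0.26 (6 h minus 2 h). The call of the fitted difference in the change from 0 h was lost in 10 settings. Among them were the fits without any 1 of the control arrays at 0 or 2 h, either treated array at 0 h or replicate 2 of the treated cells at 2 h.

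Spred1, the inhibitor of Ras signalling to RAF, was lower at 12 h than at 0 h with and without the inhibitor. Control levels were 8.50 and 8.47 at 0 h, 8.29 and 8.50 at 2 h, 8.32 and 8.01 at 6 h, then 7.75 and 7.80 at 12 h, and treated levels were 8.48 and 8.41, 8.39 and 8.25, 8.12 and 8.39, and 7.91 and 8.06 at these times. It fell by 12 h in control cells (−0.71 ± 0.13, limma adjusted p = 0.00207) and in treated cells (−0.46 ± 0.13, adjusted p = 0.0148), the latter not called when arrays were scaled to the same mean or without replicate 1 of the treated cells at 0 or 12 h (0.0521 to 0.103). The Akti1/2 difference was −0.04, −0.07, 0.09 and 0.21 at 0, 2, 6 and 12 h, and none was called. Their 95% intervals together reach from −0.36 to 0.50.

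**Figure D2:**
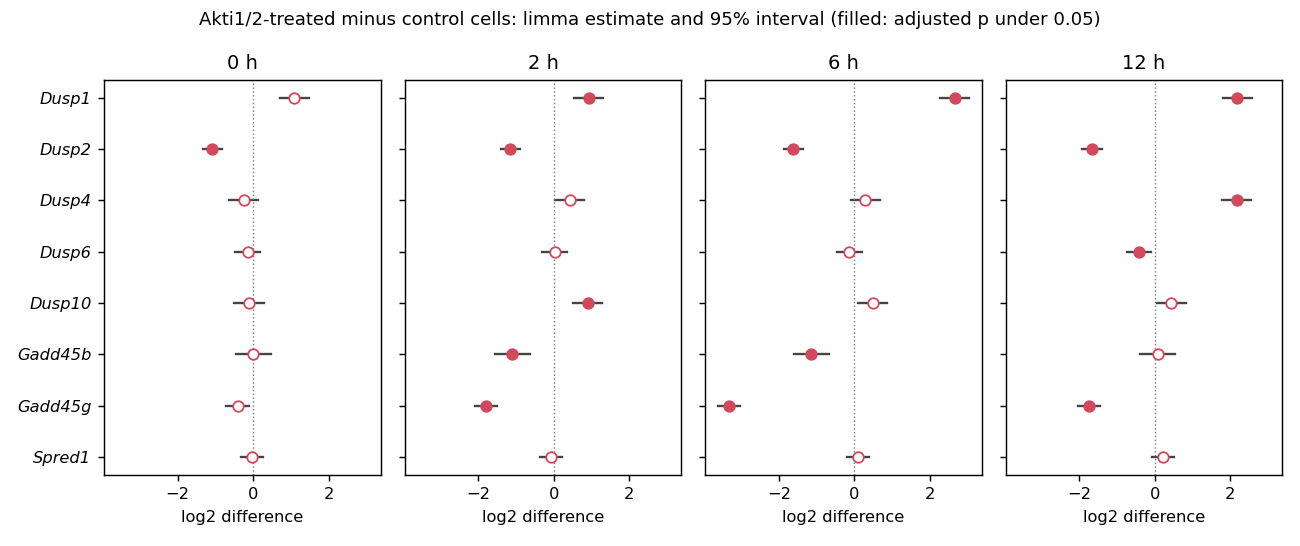
Difference in log2 level between Akti1/2-treated and control cells (horizontal axis) for the 8 genes tested, at 0, 2, 6 and 12 h. Points are limma estimates, lines 95% intervals, and filled points have an adjusted p under 0.05. At 0 h Dusp2 was the one call, at 6 h Dusp1 lay at 2.66 and Gadd45g at −3.32, and Dusp4 moved to 2.17 at 12 h. Dusp10 in control cells at all times and in treated cells at 0 and 6 h, and Gadd45b in control cells at 0 h, were at background.

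Counted over the 8 genes tested, of which Dusp10 entered through treated arrays and Gadd45b through stimulated arrays and 1 array at 0 h, Akti1/2-treated and control cells differed in 1 gene at 0 h, where 0.0541% of all genes tested were called. They differed in 5 genes at 2 h (28.4% of all genes called), 4 at 6 h (37.5%) and 5 at 12 h (49%). The median absolute difference was 1.05 over the 8 genes and 0.40 over all genes tested at 12 h. Calls of either direction occurred at each time after 0 h: 2 higher and 3 lower genes at 2 h as at 12 h, and 1 higher and 3 lower at 6 h.

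Against 0 h, 4 of the 8 genes were called in control cells at 2, 6 and 12 h alike (10.3%, 27.5% and 27.8% of all genes called). In treated cells 6, 5 and 7 were called (38.6%, 33.3% and 44.5% of all genes). Those at 2 h include Dusp10, by arrays through which it entered the test. Dusp6 and Gadd45b were called in all 6 of these comparisons. Without replicate 1 or 2 of the control cells at 0 h, or replicate 1 at 2 h, 2 genes were called in control cells at 2 h, and at 6 h 2 were called without either control array at 0 h or 6 h. At 6 h in treated cells, 3 genes were called without replicate 1 at 0 h.

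The change from 0 h differed between treated and control cells in 3, 4 and 4 of the 8 genes at the 3 times (8.41%, 19.5% and 32.5% of all genes called). Those at 2 h include Dusp10, whose call rests on arrays through which it entered the test. Gadd45g was called at all 3 times and in each of the settings run. At 2 h, 1 gene was left without either control array at 0 h, replicate 1 of the control cells at 2 h or replicate 1 of the treated cells at 0 h, and at 6 h 2 were left without replicate 1 of the control cells at 0 h or replicate 2 at 6 h.

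Between successive times, 5 of the 8 genes changed from 2 to 6 h in control cells (14.6% of all genes called): Dusp1 fell, and Dusp2 (0.65 ± 0.12), Dusp4 (0.82 ± 0.18), Gadd45b (1.57 ± 0.21) and Gadd45g (1.82 ± 0.14) rose. The call of Dusp4 was lost without replicate 2 of the control cells at 2 or 6 h (limma adjusted p 0.0946 and 0.084). From 6 to 12 h, Gadd45b and Gadd45g fell in control cells (2 of 8, 13.6% of all genes), Gadd45g by 1.42 on the log2 scale. Of these, 1 call was left without any 1 of the control arrays at 0, 6 or 12 h. In treated cells 3 genes changed from 2 to 6 h (30.2% of all genes), Gadd45b (1.52 ± 0.21) and Dusp4 (0.69 ± 0.18) upwards and Dusp10 downwards. The call of Dusp10 rests on the 2 h arrays through which it entered the test, with the treated cells at 6 h at background. Without replicate 2 of the treated cells at 2 h, 1 of the 3 was called, and Dusp4 was also lost without replicate 1 at 6 h (limma adjusted p 0.0717 and 0.0872). From 6 to 12 h, 2 changed (17.8%), Dusp4 and Dusp1, and 1 was left without replicate 2 of the treated cells at 6 h. The Akti1/2 difference changed between 2 and 6 h in 2 of 8 genes (12% of all genes), Dusp1 and Gadd45g, and between 6 and 12 h in 3 (5.92%), Dusp4, Gadd45b and Gadd45g.

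**Figure D3:**
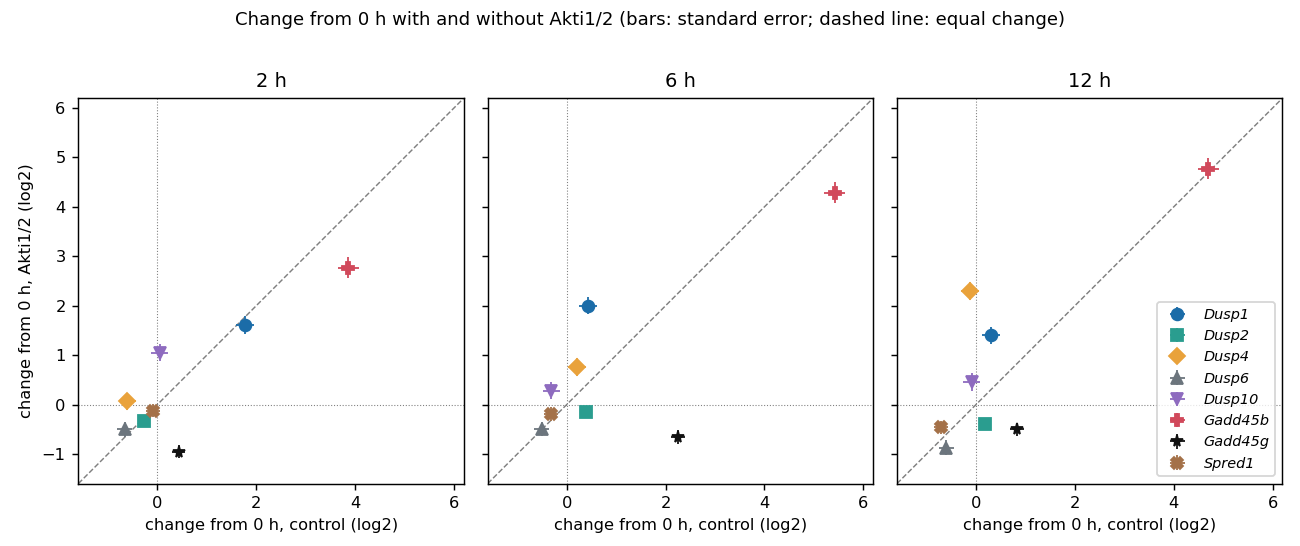
Change from 0 h in Akti1/2-treated cells (vertical axis, log2) against the change in control cells (horizontal axis, log2) for the 8 genes tested at 2, 6 and 12 h. Bars are standard errors and the dashed line marks equal change. Gadd45g lay to the lower right at each time (2.25 in control and −0.66 in treated cells at 6 h), Dusp1 moved above the line at 6 h and Dusp4 at 12 h, and Gadd45b returned to the line at 12 h. The Gadd45b changes in control cells start from a level at background.

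The score used in the study, J5, divides a gene's difference in mean linear intensity by the mean absolute difference of all genes, with arrays scaled to a common 95th percentile, and has no error term. The study names a threshold of 20 for 2 h, and it was applied here at all times. Beyond 20 lay Gadd45b (30.3) and Gadd45g (26.8) at 6 h in control cells and Dusp1 (22.2) at 6 h in treated cells, and no other member in the 6 comparisons against 0 h. Of all 18138 genes, 0.673%, 0.728% and 0.645% were beyond it at 2, 6 and 12 h in control cells, and 0.662%, 0.667% and 0.855% in treated cells. With the mean taken over the tested genes alone, no member was beyond 20 at 6 h in control or in treated cells.

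The rest of the MAP kinase system, ERK-responsive genes, genes for partners of GADD45 proteins and p53 targets were followed in lists of 88 genes in all. Of these genes, 82 had an entry and 46 were tested. The change from 0 h differed between treated and control cells in 4, 12 and 17 of these at 2, 6 and 12 h, against the shares of all genes given above (8.41%, 19.5% and 32.5%). Their median difference at 12 h was −0.02, as was that of all genes tested. The same shares and median of all genes stand beside the counts of each list below. The count at 2 h was 1 to 2 without any 1 of the 4 arrays at 0 h or replicate 2 of either group at 2 h.

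Among other dual specificity and related phosphatases, 7 of 22 genes with an entry were tested, and 0, 1 and 4 of them were called at 2, 6 and 12 h (median −0.17 at 12 h). The count at 6 h, which is Dusp7 (−1.06, limma adjusted p = 0.0213), was 0 to 2 with an array left out, and it moved without replicate 1 of the control cells at 0 h, replicate 2 at 6 h, either of them at 12 h, either treated array at 0 h or replicate 2 of the treated cells at 6 h. Dusp7, a cytoplasmic ERK phosphatase related to Dusp6, rose to 8.19 and 7.96 at 12 h in control cells from 7.27 and 7.63 at 0 h and read 6.74 and 6.43 at 12 h in treated cells, a difference in response of −1.57 ± 0.28 (limma adjusted p = 0.00131). Dusp16, a JNK phosphatase (0.69 ± 0.17, limma adjusted p = 0.00838), and Dusp11, which acts on RNA (0.67 ± 0.15, adjusted p = 0.00471), differed upwards.

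Of the MAP kinases and their direct activators, 13 of 20 were tested and 2, 3 and 4 called at the 3 times (median 0.09 at 12 h). The count at 2 h was 0 to 3 with an array left out, and it moved without any 1 of the arrays at 0, 2 or 12 h. Mapk9, which encodes the JNK isoform JNK2, was 9.18 and 8.97 in treated and 8.05 and 8.13 in control cells at 12 h, a difference in response of 1.12 ± 0.15 (limma adjusted p = 0.000186). Mapk13, which encodes p38 delta, differed downwards (−1.22 ± 0.20, limma adjusted p = 0.00062), and Map2k5, which activates ERK5, upwards (0.83 ± 0.15, adjusted p = 0.00121). Of the kinases one step further up (14 with an entry, 9 tested, median 0.10 at 12 h), none was called at 2 h, 1 at 6 h (Map3k3, 0.68 ± 0.21, limma adjusted p = 0.0407) and 1 at 12 h (Map3k11, 0.72 ± 0.24, adjusted p = 0.0362). The call of Map3k3 was lost in 11 settings, among them without either control array at 0 or 12 h, either treated array at 12 h, replicate 1 of the control cells at 6 h, or replicate 1 at 0 h or 2 at 6 h of the treated cells (limma adjusted p 0.0532 to 0.154). That of Map3k11 was lost in 7, among them without either control array at 0 or 12 h or replicate 1 of the treated cells at 0 or 12 h (0.059 to 0.13). None of the 5 other Sprouty and Spred genes with an entry could be tested.

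Of 6 tested genes known to follow ERK signalling, 1, 3 and 3 were lower in response with Akti1/2 at 2, 6 and 12 h and none higher (median −0.78 at 12 h, −0.02 over all genes tested), beside 8.41%, 19.5% and 32.5% of all genes called in either direction. Their levels ran both ways at 2 h, when 2 were called higher and 1 lower in treated than in control cells (28.4% of all genes called). At 6 h 3 were lower and at 12 h 5, with none higher at either time (37.5% and 49% of all genes called). The count was 2 at 2 h without replicate 1 of either group at 2 h, and the 3 at 12 h include Ier3 (−0.73, limma adjusted p = 0.0456), a call lost in 13 settings (0.0516 to 0.173). Phlda1 was 9.55 and 9.59 in control and 7.35 and 7.50 in treated cells at 12 h (difference in response −1.98 ± 0.22, limma adjusted p = 5.67e-05). Ier3, a survival gene of the early response, was 14.31 and 14.09 in control and 11.95 and 11.97 in treated cells at 6 h (−1.87 ± 0.26, limma adjusted p = 0.000561). Myc, the growth regulator, was 7.72 and 7.79 against 6.81 and 6.42 at 6 h. Its difference in response was −1.66 ± 0.26 (limma adjusted p = 0.00118), with −1.06 within chip 1 and −2.25 within chip 2. On stimulation alone the list did not move as one. In control cells 2 of the 6 genes were called higher and 3 lower than at 0 h at each time (10.3%, 27.5% and 27.8% of all genes called). Their median was −0.83 at 2 h, when Egr1 had fallen from 13.26 and 12.96 to 9.02 and 9.66. ERK activity was not measured.

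Among the genes for proteins that bind GADD45 proteins, 6 of 7 were tested and 2, 2 and 3 called (median −0.77 at 12 h), where 8.41%, 19.5% and 32.5% of all genes were called. Those at 2 h were higher, and at 12 h 1 was higher and 2 lower. The count at 2 h was 0 to 2 with an array left out, and it fell without any 1 of the arrays other than those of treated cells at 6 h. Map2k7, the JNK kinase that GADD45B blocks, was 7.62 and 7.55 in treated and 7.02 and 6.99 in control cells at 6 h, and its response differed by 0.83 ± 0.15 at 12 h (limma adjusted p = 0.00122). Cdkn1a, the cell cycle inhibitor, differed by −1.16 ± 0.23 (adjusted p = 0.0024 by limma), and Cdc2a, the mitotic kinase, by −1.02 ± 0.21 at 12 h (limma adjusted p = 0.00318). Of 8 p53 targets tested, 1, 4 and 4 were called, beside the same shares of all genes (median 0.14 at 12 h, with 3 higher and 1 lower). The call at 2 h is Sesn2 (1.35, limma adjusted p = 0.0224), lost in 5 fits without 1 array (0.0519 to 0.0866), which left none called without replicate 1 of the control cells at 0 h, replicate 2 at 2 h or either treated array at 0 h. The 4 at 6 h include Trp53inp1 (0.92, adjusted p = 0.0233), lost in 7 such fits (0.0523 to 0.0716), with 3 to 4 genes called. Bbc3, which encodes the death-promoting protein PUMA, fell in control cells to 6.88 and 6.96 at 12 h and read 9.19 and 8.96 in treated cells (2.29 ± 0.16, limma adjusted p = 2.96e-06). Trp53inp1 (2.63 ± 0.25, limma adjusted p = 2.02e-05) and Sesn2 (1.75 ± 0.31, adjusted p = 0.00111), whose control level at 12 h was at background, also differed upwards. Cdkn1a, which is counted in this list as well, differed downwards, so the called p53 targets ran both ways.

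**Figure D4:**
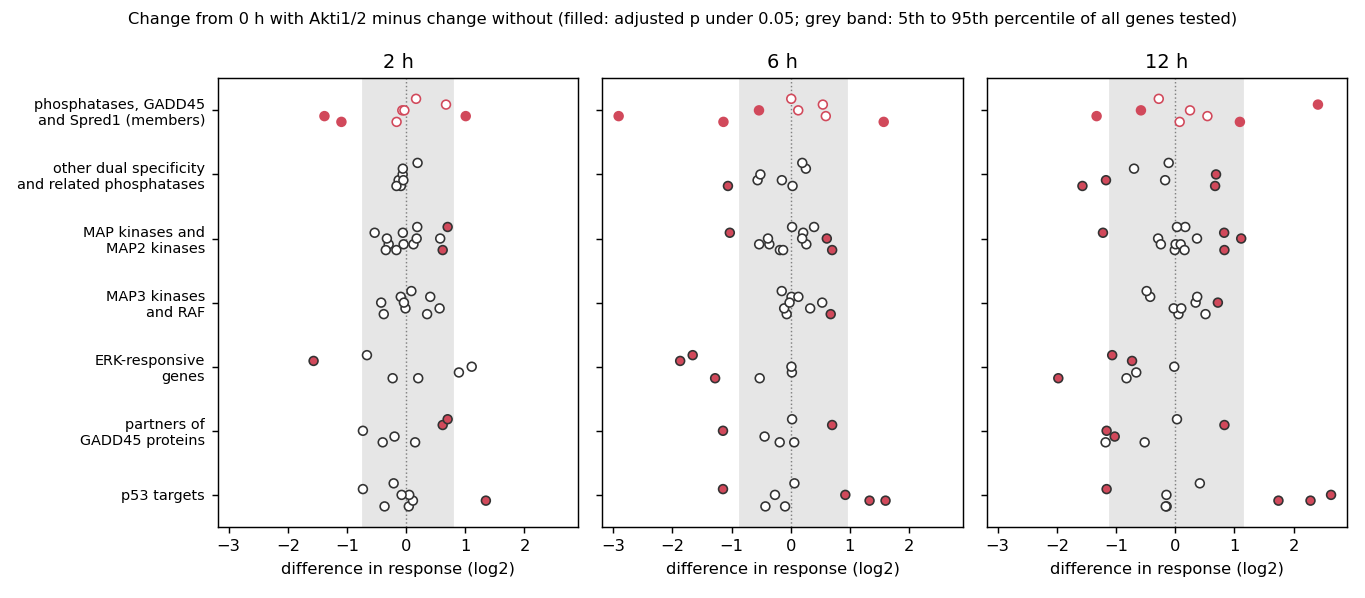
Difference in response (treated minus control, for the change since 0 h, log2, horizontal axis) of the 8 members tested and of the tested genes of 6 lists (rows) at 2, 6 and 12 h. Each point is a gene, filled where its adjusted p was under 0.05, and the grey band spans the 5th to 95th percentile of all genes tested. Gadd45g lay at −2.91 and Dusp1 at 1.57 at 6 h, and Dusp4 at 2.41 at 12 h, while the ERK-responsive genes called in this comparison lay below 0.

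The genes whose pattern was most like a member were taken by Pearson correlation over the 8 group means, among 2825 tested genes whose means span at least 1 on the log2 scale. With 8 points that share arrays, these values are a description. Gadd45b ran closest to Ccl4, a chemokine gene (r = 0.994), Traf1, an adaptor of TNF receptors (0.990), and Il10 (0.989). Gadd45g ran closest to Furin, a protease (0.979), Il24 (0.976) and Asb2 (0.959). Dusp1 was most like Srp9 (0.955), the costimulatory receptor gene Cd28 (0.952) and Ccdc130 (0.944), and Dusp2 most like Otud6b (0.958), St3gal4 (0.954) and BC017647 (0.952). For Dusp4 these were Slc4a2 (0.964), Gstt3 (0.958) and Arfgap3 (0.953), for Dusp6 F2rl2 (0.948), Angptl4 (0.941) and Arid3b (0.937), for Dusp10 Arrdc3 (0.967), Dem1 (0.967) and Pafah1b1 (0.964), and for Spred1 Ctnnd2 (0.991), Ppm1j (0.977) and Fez1 (0.962). The pattern of Dusp10 is mostly background readings beside the treated cells at 2 h, through which it entered the test. Some neighbours were dim too, such as F2rl2 (group means 4.71 to 5.84), Il24 (4.59 to 6.69) and Otud6b (4.91 to 6.35).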

How the data were processed

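Total RNA of 16 D10 samples was hybridized to Illumina mouse RefSeq arrays. The authors deposited the scanner software's intensity of each gene, 1 value per gene and array on a linear scale, neither normalized nor background-subtracted per the file headers. No detection p is given. From these, a detection p was computed from the 798 negative controls of the same file, as the share that was as bright as a gene or brighter, and genes under 0.01 on at least 2 of 16 arrays were tested. Values were background-corrected and quantile-normalized with the neqc function of limma (version 3.58.1, R 4.3.3) on genes and negative controls, with an offset of 16, to log2 values. A single model held the 8 groups (lmFit, contrasts.fit, eBayes, 8 residual and 4.26 prior degrees of freedom), with Benjamini-Hochberg adjustment per comparison over the 7395 genes tested and 19 contrasts, 2 of them (the change of the Akti1/2 difference between times) added after the data had been seen. No source used here says that duplicates were separate cultures, so p-values measure the spread between these arrays. J5 was computed on all genes with no test. Promoters were searched for 7 motifs with Python 3.11.15, and figures drawn with matplotlib 3.10.9.

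The members, gene lists, tests and alternatives were chosen with earlier results of these data known, so no list is independent evidence. Genes named are the members, up to 3 genes per list with the smallest p among called differences in response, and the 3 genes most like each member. Cdk1 was found under its older symbol Cdc2a. The alternatives were 7 other fits and leaving out each of 16 arrays, on the assumption that the array left alone varies as arrays of the remaining groups do. The fit was tested on simulated arrays with planted changes. Array number limits the precision, and replicate numbers were not used as pairs. A second deposited table repeats the control probes of 15 arrays and was not used here.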

Additional observations from a re-analysis of the deposited data

Results flagged for a closer look

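The following differences in response (treated minus control, for the change since 0 h) passed limma's test of the difference itself (adjusted p under 0.05, 2 arrays per group). For Gadd45g they were −1.38 at 2 h, −2.91 at 6 h and −1.33 at 12 h. Treated cells were below their 0 h level at each time, and control cells were above theirs at 6 and 12 h (0.43 at 2 h, not called). For Dusp1 the differences were 1.57 at 6 h and 1.09 at 12 h, where the control level had come back down and the treated level was still above its 0 h level. Dusp4 differed by 2.41 at 12 h. Dusp2 differed by −0.54 at 6 h and −0.58 at 12 h. Gadd45b differed by −1.09 at 2 h and −1.14 at 6 h from a control level that was at background at 0 h, and by −1.93 and −0.26 within the 2 chips at 2 h. Dusp10 differed by 1.01 at 2 h (0.33 without background correction), with 3 of 4 groups at background and through the arrays by which it entered the test, so the size is not a measured one.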

How the results depend on the processing

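Of 73 called differences of the members, 48 were called in every setting in which they could be fitted, and 25 lost the call in at least 1 setting. Of 31 called values of named list genes, 23 were called in every setting. None of the called values of the members changed sign within either chip. Dusp10 and Gadd45b drop out where only genes detected on all arrays are kept.

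The number of members called for Akti1/2-treated against control cells at 0 h was 2 (Dusp1 beside Dusp2) with quantile normalization without background correction, only genes detected on all arrays, the replicate block or the chip block, 0 in a fit of only the groups compared, and 1 to 2 with an array left out. For the difference in response at 2 h it was 1 without the filter on dim genes, in a fit of only the groups compared, or where a gene had to be detected on all arrays, and 1 to 3 with an array left out (2 to 4 at 6 h). With only genes detected on all arrays it was 3 for treated against control cells at 2 h, 1 for the treated cells from 2 to 6 h and 1 for the control cells from 6 to 12 h. With no filter it was 1 for control and 1 for treated cells from 6 to 12 h, and 1 for the latter with only the groups compared. With an array left out the counts were 2 to 5 for control cells (2 or 6 h against 0 h), 3 to 5 for treated cells at 6 h against 0 h, 1 to 2 for control cells and for treated cells from 6 to 12 h, 1 to 4 for treated cells from 2 to 6 h, and 1 to 5 for the list genes in the response at 2 h. For these counts the cause was not tested, except that fewer members are tested under the stricter filter. The share of all genes called in the same setting is not set beside them, nor beside the counts above with an array left out. A change in the members can thus not be told from a change over all genes.

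With a J5 threshold of 10, 3 and 1 members of the control cells were beyond it at 2 and 12 h, and 1, 2 and 2 at 2, 6 and 12 h in treated cells. The share of all genes beyond 10 was not computed, so these counts cannot be set beside it. Over the tested genes alone 0 were beyond 20 at 6 h in control cells and 0 in the treated ones.

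Differences that were not called changed sign as follows. Scaled to the same mean, Dusp6 in treated against control cells at 2 h was −0.089, Gadd45b at 12 h −0.0086 and its response at 12 h −0.0053. With an array left out, these ran from −0.094 to 0.15, from −0.077 to 0.22 and from −0.19 to 0.34. Dusp6 at 6 h ran from −0.28 to 0.020, Spred1 from −0.17 to 0.034 at 2 h and from −0.068 to 0.24 at 6 h, and the response of Dusp2 at 2 h from −0.21 to 0.073.

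Over all genes, a fit of only the groups compared called under 2 in 3 of the genes called otherwise in 10 comparisons (for example 1121 against 2103 for treated against control cells at 2 h, and 335 against 1313 for treated cells from 6 to 12 h). Scaling to the same mean moved the median response difference of all genes at 6 h to 0.12, from −0.01, and the share of higher among called genes to 71.9% from 52.7%, and for control cells at 2 h to 25.9% from 43%.

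Replicate numbers coincide with the chip in all groups but the control cells at 12 h, and no label says that a number marks a shared culture or day. The numbers were not taken as pairs, since the correlation of replicate differences between groups was −0.296 to 0.264 over 21 pairs without the control cells at 12 h and −0.162 to 0.137 over 7 with them. The replicate block moved the count of members at 0 h to 2, with a call for Dusp1 there (adjusted p = 0.032), made Gadd45b lose its response call at 2 h (0.0509), and changed no other member value given here. With numbers crossed, which was added after seeing the data, the fits of 2 groups called 1543 genes (1019 uncrossed) for treated cells at 6 h against 0 h, 2748 (1133) for treated against control cells at 6 h, 629 (66) for control cells from 2 to 6 h and 679 (353) from 6 to 12 h. Crossing was run only for these comparisons, picked for their negative correlations (−0.296 to −0.101). A crossed block takes up more spread there by construction, so the higher counts do not show which arrays belong together.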
